A study of Homo sapiens with 6 samples.

Results

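Messenger RNA of 10 cell surface receptors was followed in the established human melanoma line A375 with and without the RNA polymerase I inhibitor BMH-21. The set holds 9 receptor tyrosine kinases (AXL, EGFR, ERBB2, ERBB3, MET, PDGFRA, PDGFRB, FGFR1 and IGF1R) and the neurotrophin receptor NGFR. Members were taken by gene symbol, and all 10 were found among 25548 gene rows. The control group comprised 3 samples with the solvent DMSO, titled 0 h, and the treated group comprised 3 samples given 1 µM BMH-21 for 6 h. Both groups are the same cell line grown in DMEM with serum, and because the controls carry the 0 h title, the drug and 6 h of further culture cannot be told apart. The labels call the line skin tissue and melanoma. All 8 listed melanoma markers were measured, among them the melanocyte lineage factor SOX10 at 97.0 FPKM in control. With BMH-21, 7 of the 8 had estimates below control, and CSPG4 (92.5 FPKM against 134 FPKM), S100B (17.8 FPKM against 28.7 FPKM) and MITF were lower, with no value shared between the authors' bounds for the groups. The margin between the bounds was narrow for CSPG4 and for MITF, which was at 5.31 FPKM against 8.06 FPKM. Of 12750 genes at 1 FPKM or more in either group, short RNA rows left out, 44.8% had estimates below control. By the same rule on bounds, 3.15% of them were lower. Markers of other cell types summed in control to 12.4 FPKM over 6 epithelial genes, of which KRT10 held 10.4 FPKM, to 4.58 FPKM over 5 immune genes, of which LYZ held 4.39 FPKM, and to 0.863 FPKM over 4 endothelial genes. Their part in the results was not tested.

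Each gene has 3 values per group in FPKM, a unit that divides the fragments of a transcript by its length and by library size, so that levels of different genes can be set side by side per length. The columns are titled as replicates, but the first was the midpoint of the other 2 in 16203 control rows and 15872 BMH-21 rows, of 16213 and 15881 with all values above 0. It is therefore given here as the authors' estimate for the group, followed by the authors' lower and upper bound, for which no source used here gives a confidence level. Values of single libraries were not analysed here, so the table holds no spread between replicates and no p-value was computed. The sequencing depth is unknown, since FPKM holds no read totals. Intervals of the 2 groups are called separate where they share no value. This is a description and stands in for no test over replicates, and overlap does not show equal levels.

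Receptor tyrosine kinases span the plasma membrane, pair up when a growth factor binds outside, and phosphorylate each other and docking proteins inside, which feeds the RAS and MAP kinase pathway and the PI3K and AKT pathway. In melanoma, where an activated BRAF kinase often drives the MAP kinase pathway, several of these receptors are known as routes by which cells tolerate inhibitors of that pathway. AXL and EGFR are known markers of a dedifferentiated state, ERBB3 is known from cells with lineage factors such as SOX10, and NGFR, a receptor without kinase activity, marks a neural crest-like state.

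The window of 250 bases before the annotated start is shown for the 2 members with separate intervals, PDGFRB and IGF1R, and for MET, the member whose log2 difference lay nearest to 0 on the authors' scaling, while AXL lay nearer under 3 others. Sequences are from RefSeq on GRCh38.p14, whereas the submitters' processing notes name GRCh37. PDGFRB lies on the minus strand at chr5:150155846-150156095, IGF1R on the plus strand at chr15:98648289-98648538 and MET on the plus strand at chr7:116671946-116672195. Capitals mark the GC box GGGCGG and the CCAAT box CCAAT, each searched on both strands.
PDGFRB: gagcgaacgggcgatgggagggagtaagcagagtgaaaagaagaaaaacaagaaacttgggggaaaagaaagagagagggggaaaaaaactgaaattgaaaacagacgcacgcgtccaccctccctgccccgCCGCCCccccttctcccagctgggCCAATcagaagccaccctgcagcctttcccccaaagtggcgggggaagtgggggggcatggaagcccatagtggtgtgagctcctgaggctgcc
IGF1R: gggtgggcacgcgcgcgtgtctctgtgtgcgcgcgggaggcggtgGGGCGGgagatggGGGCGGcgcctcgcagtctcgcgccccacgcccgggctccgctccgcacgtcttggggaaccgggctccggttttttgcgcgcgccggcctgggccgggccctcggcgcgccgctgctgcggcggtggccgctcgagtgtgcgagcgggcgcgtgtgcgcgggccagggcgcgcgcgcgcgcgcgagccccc
MET: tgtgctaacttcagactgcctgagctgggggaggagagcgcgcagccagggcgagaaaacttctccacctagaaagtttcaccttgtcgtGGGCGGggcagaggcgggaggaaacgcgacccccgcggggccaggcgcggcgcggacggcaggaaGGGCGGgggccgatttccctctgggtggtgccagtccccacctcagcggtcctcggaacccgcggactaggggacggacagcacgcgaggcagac

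The PDGFRB window held 1 GC box and 1 CCAAT box, and the IGF1R and MET windows each held 2 GC boxes and no CCAAT box. No marked motif overlapped another. Of 35116 promoter windows of this length, 42.6% held a GC box and 32.0% a CCAAT box, so these letters are common. Neither the TATA box TATAAA, in 10.7% of all windows, nor the AP-1 motif TGANTCA, in 6.57%, occurred in the 3 windows. The G and C content was 58.4% for PDGFRB, 81.2% for IGF1R and 68.4% for MET, against a median of 58.0% over all windows. The members with separate intervals thus stood at different G and C contents, and the GC box was present in all 3 windows shown.

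The comparison asked which receptor messages differed after BMH-21. PDGFRB, the receptor for PDGF-B and PDGF-D that is typical of mesenchymal cells, and IGF1R, the receptor for insulin-like growth factors that signals mainly through PI3K, were lower with separate intervals. The other 8 members, AXL, EGFR, ERBB2, ERBB3, MET, PDGFRA, FGFR1 and NGFR, had overlapping intervals, and 0 members were higher with separate intervals. Measured genes are those that reached 1 FPKM in either group, without rows of short RNAs, and of 12750 such genes 3.15% were lower and 3.58% higher by the same call. All 10 members were measured. By a change of 1.5-fold on the log2(FPKM + 1) scale, 1 member (ERBB3) was lower and 0 were higher, against 2.43% and 2.96% of measured genes. By a log2 difference beyond its half-width, which combines the bounds of both groups, 2 members were lower and 0 higher, against 7.08% and 7.19%. In a bulk culture, fewer cells with a message and less message per cell cannot be told apart. The median log2(FPKM + 1) difference, BMH-21 minus control, was -0.09 over the 10 members and 0.03 over all measured genes. Estimates were below control for 8 of 10 members and for 44.8% of all measured genes. These shares hold on the authors' scaling, and the median of all measured genes lay below 0 under 3 other scalings. The 8 members include EGFR, MET and NGFR, whose log2 differences lay within 0.1 of 0.

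**Figure D1:**
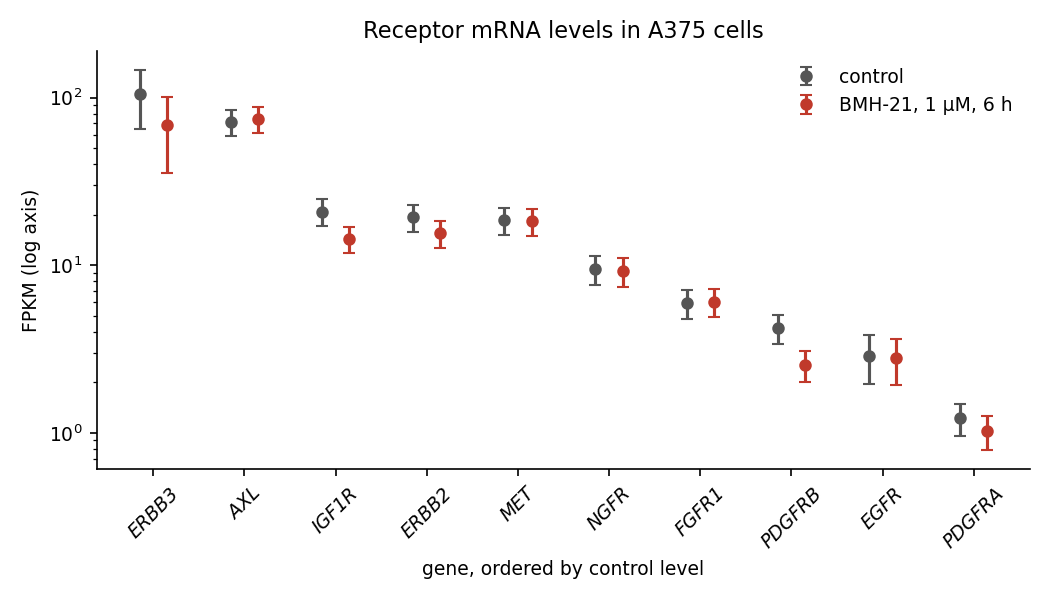
FPKM estimate (point) and the authors' lower and upper bounds (bars) of the 10 members in control and BMH-21, on a log axis, ordered by control level. The PDGFRB and IGF1R bars do not overlap between groups, and the ERBB3 bars are the widest of the members above 10 FPKM.

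Among the ERBB receptors, EGFR (ERBB1) binds EGF-like ligands, ERBB2 has no known ligand and serves as the partner of the others, and ERBB3 binds neuregulins and carries an impaired kinase. In control ERBB3 was at 106 FPKM (bounds 64.9 to 146), and with BMH-21 it was at 68.2 FPKM (bounds 35.7 to 101). Its ratio of estimates, 1.55-fold lower, was of the size seen for PDGFRB and IGF1R, but the intervals overlapped between 64.9 and 101 FPKM. The log2 difference was -0.62 with a half-width of 0.94. The control bounds of ERBB3 extended 38.6% to either side of the estimate. The median was 18.8% over 6519 genes at 10 FPKM or more, and 2.73% of those genes had bounds at least as wide. ERBB3 had the widest bounds of the members relative to its estimate, and its direction cannot be stated from these bounds.

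ERBB2 was at 19.3 FPKM (bounds 15.8 to 22.9) in control and 15.5 FPKM (bounds 12.7 to 18.4) in BMH-21, and its log2 difference was -0.30 with a half-width of 0.36. EGFR was at 2.88 FPKM (bounds 1.94 to 3.81) and 2.78 FPKM (bounds 1.92 to 3.65). The intervals of EGFR nearly coincided, while those of ERBB2 shared a shorter stretch. The summed estimate of EGFR, ERBB2 and ERBB3 was 128 FPKM in control against 86.5 FPKM with the drug, and ERBB3 made up most of it in both. The fourth family member, ERBB4, stood at 0.0407 FPKM without and 0.0234 FPKM with BMH-21.

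The platelet-derived growth factor receptors were low in A375. PDGFRB was at 4.21 FPKM (bounds 3.38 to 5.05) in control and 2.54 FPKM (bounds 2.01 to 3.07) in BMH-21, which is 1.66-fold lower. The gap between its intervals was 0.312 FPKM, and its log2 difference was -0.56 with a half-width of 0.32. PDGFRA, which binds PDGF-A as well, was at 1.22 FPKM (bounds 0.952 to 1.49) in control and 1.02 FPKM (bounds 0.787 to 1.26) in BMH-21, close to the 1 FPKM minimum. Both estimates were below control, but the intervals were separate for PDGFRB alone of the pair, and the difference between their responses was not tested. PDGFRB is also a fibroblast marker. Of 6 listed fibroblast markers, DCN (2.50 FPKM against 0.419 FPKM in control) and LUM (5.23 FPKM against 2.34 FPKM) were higher with separate intervals, DCN being measured only through BMH-21, PDGFRB was lower, and the collagen genes COL1A1, COL1A2 and COL3A1 were under 1 FPKM in both groups. The 6 summed to 7.70 FPKM without and 10.9 FPKM with BMH-21, none was at 0, and their part in the PDGFRB value was not tested.

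IGF1R was at 20.9 FPKM (bounds 17.1 to 24.6) in control and 14.3 FPKM (bounds 11.7 to 16.9) in BMH-21, or 1.46-fold lower. The interval with BMH-21 ended 0.191 FPKM below the start of the control interval, a narrow margin. The log2 difference was -0.51 with a half-width of 0.35. The related insulin receptor INSR was at 4.22 FPKM (bounds 3.41 to 5.03) and 3.33 FPKM (bounds 2.69 to 3.98), with overlapping intervals. The docking proteins of both receptors, IRS1 (3.77 FPKM against 3.56 FPKM with BMH-21) and IRS2 (30.6 FPKM against 29.4 FPKM), had overlapping intervals as well.

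AXL, the receptor for the vitamin K-dependent ligand GAS6, was at 71.7 FPKM (bounds 59.0 to 84.5) in control and 74.8 FPKM (bounds 61.5 to 88.2) in BMH-21. MET, the receptor for hepatocyte growth factor, was at 18.5 FPKM (bounds 15.2 to 21.9) and 18.3 FPKM (bounds 14.98 to 21.6). FGFR1, a fibroblast growth factor receptor, was at 5.91 FPKM (bounds 4.75 to 7.06) and 6.05 FPKM (bounds 4.88 to 7.22). The 3 pairs of intervals overlapped over most of their length. NGFR, which binds neurotrophins with partner receptors such as sortilin, was at 9.45 FPKM (bounds 7.61 to 11.3) in control and 9.23 FPKM (bounds 7.45 to 11.0) in BMH-21. AXL, EGFR, MET, FGFR1 and NGFR were the 5 members within 0.1 of 0 on the log2 scale, with half-widths between 0.34 and 0.49. Differences smaller than these half-widths are not resolved by the table. The signs of the small AXL and FGFR1 differences, 0.06 and 0.03, turned to -0.00321 and -0.03 when both groups were scaled to the same FPKM total without short RNAs.

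**Figure D2:**
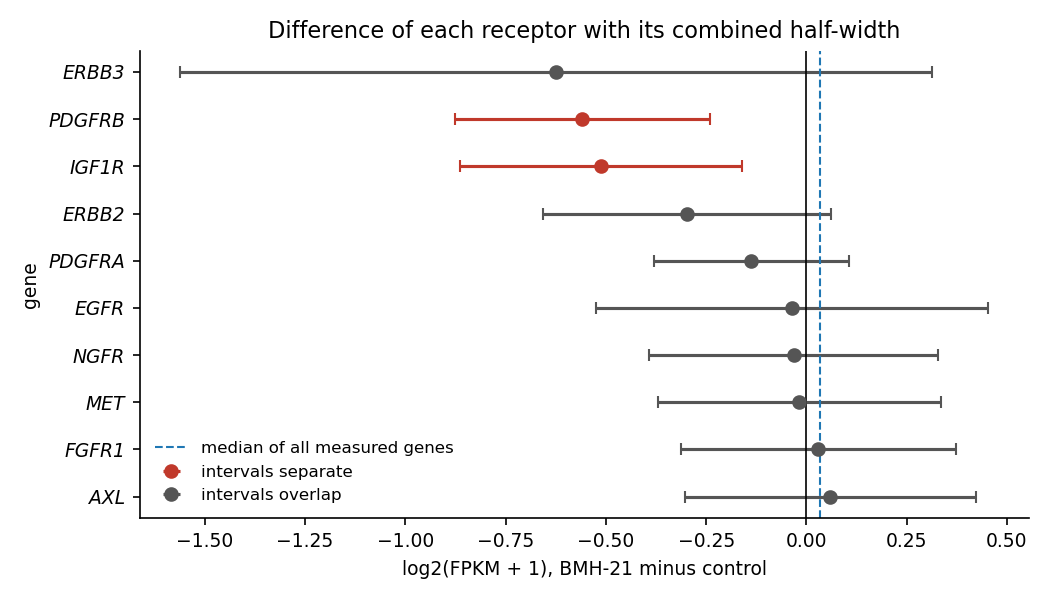
Difference in log2(FPKM + 1), BMH-21 minus control, of each member (points) with the half-width combined from both groups' bounds (bars). PDGFRB at -0.56 and IGF1R at -0.51 have separate intervals, ERBB3 at -0.62 has the widest bar, and AXL, EGFR, MET, FGFR1 and NGFR lie within 0.1 of 0, the sign of AXL and FGFR1 changing with the scaling.

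The levels of the members spanned from PDGFRA at the low end to ERBB3 in control and AXL in BMH-21 at the high end. ERBB3 and AXL together made up 68.3% of the summed member FPKM in control and 67.2% in BMH-21. ERBB3 ranked first and AXL second in control and their order was the reverse in BMH-21, but their intervals overlapped in both groups, so neither order is resolved. IGF1R, ERBB2 and MET formed the next tier between 18.5 and 20.9 FPKM in control with overlapping intervals. This tier stood clear of AXL above it and of NGFR below it in control. In BMH-21 the tier was ordered MET, ERBB2 and IGF1R, again with overlapping neighbours, and still stood clear of ERBB3 above and NGFR below. NGFR lay above FGFR1, and EGFR in control and PDGFRB in BMH-21 above PDGFRA, without overlap. In control FGFR1 overlapped with PDGFRB and PDGFRB with EGFR, while FGFR1 stood clear of EGFR. In BMH-21 FGFR1 again stood clear of EGFR, which overlapped with PDGFRB.

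Set among 58 receptor tyrosine kinases, 29 reached 1 FPKM in either group. The other 29 were under 1 FPKM in both groups, among them KIT, MERTK, MST1R, FGFR2, NTRK2 and NTRK3, and FLT3 was listed at 0 in both. ERBB3 and AXL had the highest control estimates of the 58. In control 13 were at 10 FPKM or more, of which 5 were members. IGF1R went from rank 7 in control to rank 13 in BMH-21 and PDGFRB from rank 19 to rank 23. The intervals of both overlapped those of neighbouring receptors in each group, so these ranks are not resolved.

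Of the 49 receptor tyrosine kinases outside the set, 20 were measured, of which 2 were higher and 1 was lower with separate intervals and 17 overlapped. Over all measured genes 3.58% were higher and 3.15% lower by this call, the background for this and the following lists. The median log2 difference of these other receptors was -0.10, with estimates below control in 14 of 20, against 44.8% of all measured genes. The members had a median of -0.09 and 8 of 10 estimates below control, so at the 1 FPKM minimum this lean was not particular to them. With a minimum of 5 FPKM the median was 0.05 for the other receptors and -0.03 for the members. EPHA2, an ephrin receptor, was at 110.2 FPKM (bounds 90.5 to 130) after BMH-21 and 59.1 FPKM (bounds 48.4 to 69.8) in control, and so held the highest estimate of all 58 with BMH-21. FLT1, a VEGF receptor, was at 5.48 FPKM against 3.47 FPKM, and its intervals overlapped under each of 3 other scalings. FGFR3 was lower, with 2.06 FPKM (bounds 1.59 to 2.53) after BMH-21 and 3.26 FPKM (bounds 2.56 to 3.96) in control. The FGFR1 relative FGFR4 was at 7.23 FPKM against 8.31 FPKM, and the AXL relative TYRO3 at 15.8 FPKM compared with 20.2 FPKM. Neither pair of intervals was separate. DDR2, another collagen receptor, at 19.4 FPKM against 27.1 FPKM, overlapped on the authors' scaling and was separate under 3 others. RYK, a WNT receptor with an inactive kinase, was at 43.9 FPKM against 45.3 FPKM in control, and the collagen receptor DDR1 at 25.2 FPKM against 28.0 FPKM.

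**Figure D3:**
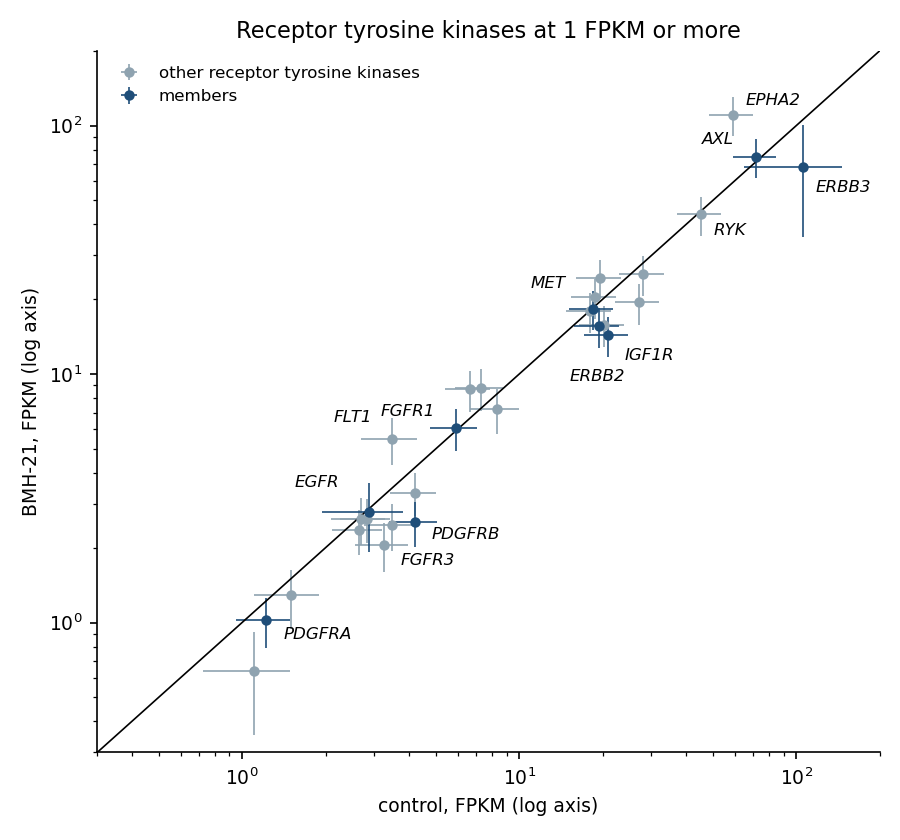
FPKM of the 29 measured receptor tyrosine kinases in control (x) against BMH-21 (y), both on log axes, with the authors' bounds as bars and the line of equal levels. EPHA2 lies above the line at 59.1 and 110.2 FPKM, and IGF1R and PDGFRB lie below it.

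Of 36 listed ligand genes, 13 were measured, of which 4 were higher with separate intervals, 0 were lower and 9 overlapped. Over all measured genes 3.58% were higher and 3.15% lower by this call. The median log2 difference of the 13 ligands was 0.14, against 0.03 over all measured genes. TGFA, a ligand of EGFR, was the most abundant, reaching 181 FPKM (bounds 148 to 213) with BMH-21 from 91.3 FPKM (bounds 74.9 to 108) without, or 1.98-fold higher. HBEGF, which also binds EGFR, was 1.79-fold higher, with 4.81 FPKM (bounds 3.78 to 5.85) after BMH-21 and 2.69 FPKM (bounds 2.05 to 3.32) in control. EGFR itself was at nearly the same estimate in both groups, as given above.

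PDGFA, a ligand of PDGFRA, had the largest log2(FPKM + 1) difference of the 13, with 11.8 FPKM (bounds 9.47 to 14.2) after BMH-21 and 4.83 FPKM (bounds 3.76 to 5.91) in control, or 2.45-fold more. PDGFB was under 1 FPKM in both groups, PDGFC was at 4.78 FPKM against 5.13 FPKM in control and PDGFD at 1.03 FPKM in both. NRG4, a ligand of ERBB4, reached 1.02 FPKM (bounds 0.718 to 1.33) from 0.383 FPKM (bounds 0.219 to 0.547). It met the 1 FPKM minimum only through the BMH-21 group, in which it was higher. The neuregulin genes NRG1, at 2.30 FPKM against 1.80 FPKM, and NRG2, with the lowest log2 difference of the ligands at 2.20 FPKM against 2.75 FPKM, overlapped. The AXL ligands GAS6 (3.84 FPKM against 3.39 FPKM) and PROS1 (4.71 FPKM against 5.43 FPKM) overlapped too, and FGF2 was at 8.60 FPKM against 6.62 FPKM. Messages for hepatocyte growth factor (HGF) and insulin-like growth factors (IGF1 and IGF2) were under 1 FPKM in both groups.

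**Figure D4:**
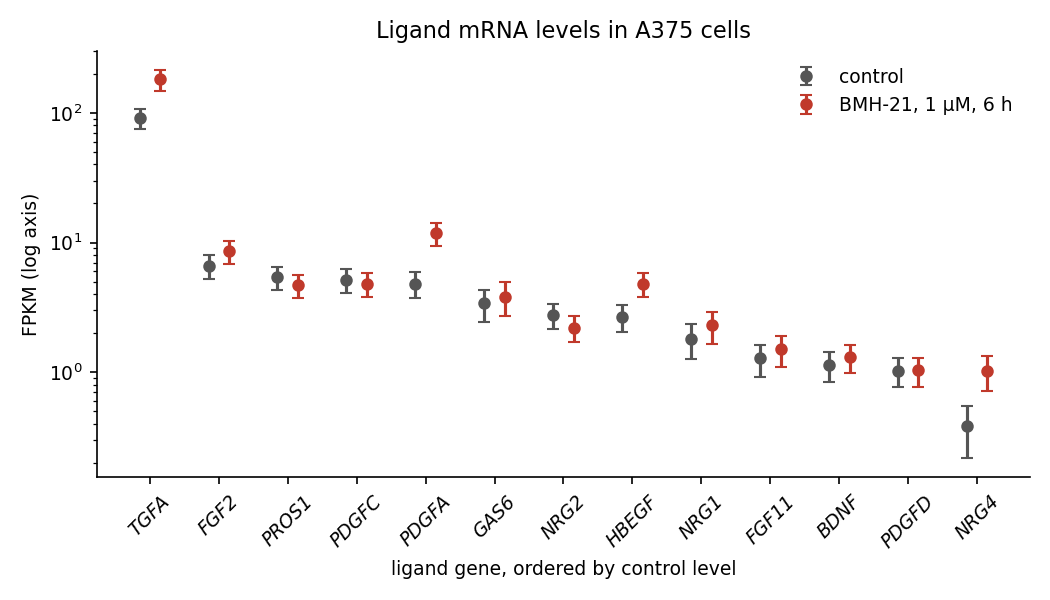
FPKM estimate (points) and the authors' bounds (bars) of the 13 measured ligand genes in control and BMH-21, on a log axis, ordered by control level. TGFA, PDGFA, HBEGF and NRG4 have BMH-21 intervals above those of control.

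Adaptors carry the receptors' output. Among 30 adaptor and proximal signalling genes, 24 were measured, with 0 higher, 1 lower and 23 overlapping and a median log2 difference of 0.01. SHC2, a phosphotyrosine adaptor, was the lower one, with 0.697 FPKM (bounds 0.440 to 0.955) after BMH-21 and 1.74 FPKM (bounds 1.26 to 2.23) in control, and met the 1 FPKM minimum only through control. The adaptor FRS2, which couples FGF receptors, had the highest difference, with 8.63 FPKM after BMH-21 and 5.99 FPKM in control, and overlapped. The adaptor SHC1 was at 97.7 FPKM against 95.6 FPKM in control and the phosphatase PTPN11 (SHP2) at 66.5 FPKM against 58.6 FPKM. CRK, an adaptor, was at 53.8 FPKM against 45.8 FPKM.

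Genes that restrain, degrade or shed receptors had 34 measured members of 35, with 0 higher, 1 lower and 33 overlapping and a median of 0.05. The ERK feedback inhibitor SPRY4 was the lower one, its BMH-21 interval of 34.1 to 48.9 FPKM ending below the control interval of 50.3 to 72.3 FPKM. The most abundant in control were its relative SPRY2, at 129 FPKM against 161 FPKM in control, and the metalloproteinase inhibitors TIMP1 (154 FPKM against 142 FPKM) and TIMP3 (119 FPKM against 126 FPKM). PTPN1, a phosphatase that acts on the insulin and IGF receptors, was highest by difference at 40.4 FPKM against 31.1 FPKM. These 4 overlapped.

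None of the 24 measured genes of the PI3K and AKT axis had separate intervals (median 0.03), and none of 14 in the RAS and MAP kinase core (median 0.17). In the first, PIK3R3, a regulatory subunit of PI3K, was at 7.52 FPKM against 5.12 FPKM and PIK3CD at 3.90 FPKM against 6.02 FPKM. In the other, the RAS-inactivating RASAL2 had the lowest difference, at 5.41 FPKM against 6.52 FPKM. The most abundant in control were RHEB (57.4 FPKM) and AKT1 (48.0 FPKM) in the first list, and MAP2K2 (53.8 FPKM) and NRAS (35.8 FPKM) were among the most abundant in the other. Overlap in these lists does not show that the genes stayed level.

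For NGFR, 24 partners and neurotrophin signalling genes were listed, of which 23 matched a row, 13 were measured and 0 had separate intervals (median 0.03). The sorting receptor SORT1, a partner of NGFR for pro-neurotrophins, was at 9.04 FPKM against 9.43 FPKM. The neurotrophin gene BDNF was at 1.31 FPKM against 1.14 FPKM. ZNF274 had the highest difference, at 8.80 FPKM against 6.30 FPKM, and IRAK1 (146 FPKM), RTN4 (145 FPKM) and NGFRAP1 (111 FPKM) were the most abundant in control.

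Among 31 transcription factors tied to receptor levels in melanoma, 30 were measured, with 2 higher, 2 lower and 26 overlapping (median -0.07). SNAI2, a factor of epithelial to mesenchymal transition, was higher, with 1.49 FPKM (bounds 1.06 to 1.91) after BMH-21 and 0.555 FPKM (bounds 0.342 to 0.768) in control, and met the 1 FPKM minimum only through BMH-21. EGR1, an immediate early factor, was at 30.7 FPKM against 19.2 FPKM, and its intervals overlapped under each of 3 other scalings. TEAD2, a DNA-binding partner of YAP1, was lower, with 11.7 FPKM (bounds 9.41 to 14.0) after BMH-21 and 19.7 FPKM (bounds 16.0 to 23.5) in control. The pigment lineage factor MITF was lower as well, with a log2 difference of -0.52. Its margin was narrow, the BMH-21 interval ending at 6.42 FPKM and the control interval starting at 6.45 FPKM. SOX10, to which ERBB3 is tied in the melanocyte lineage, was at 90.0 FPKM against 97.0 FPKM, and its intervals overlapped. WWTR1 (TAZ), at 182 FPKM against 228 FPKM, and ATF4, at 138 FPKM against 178 FPKM, were the most abundant factors of this list in control and overlapped too.

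Across the 8 lists without the members, 168 genes were measured, of which 8 (4.76%) were higher and 5 (2.98%) lower with separate intervals. NRG4 and SNAI2 among the higher and SHC2 among the lower met the minimum only through the group in which they were high. These shares stand beside 3.58% and 3.15% over all measured genes. Under 3 other scalings the medians of the adaptor, restraint, PI3K and NGFR partner lists turned below 0, as did that of all measured genes, while the ligand and RAS lists stayed above 0 and the members, the other receptors and the transcription factors below it. The lists were chosen with earlier results of these data known, and their counts describe the table.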

How the data were processed

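Per the labels' protocols, Trizol-extracted RNA went into Illumina stranded total RNA libraries. The authors deposited 1 table of FPKM values, and TopHat2, Cuffdiff 2.0 and GRCh37 are named in the submitters' processing notes without their roles; the annotation and strand setting are not given in the sources used here. Groups came from the sample titles. Since each group has 1 estimate with bounds, the limma fit written for single libraries could not be run, and no test was made. Differences are log2(FPKM + 1), which understates changes of low genes, on the authors' scaling. The half-width of a difference adds those of the 2 groups in quadrature on that scale. Genes that reached 1 FPKM in either group were counted, without 324 measured short RNA rows; 11 measured rows with an estimate outside its bounds were never called separate. The rule for calls was checked on control values multiplied by known folds, with no noise added. That check covers the arithmetic and not how reliable a call is. Python 3.11.15, pandas 2.3.3 and NumPy 2.4.6 were used.

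The members and lists were chosen with earlier results of these data known. All members are named. From each list the text names up to 6 separate genes, those with the highest and lowest differences and the most abundant ones, with relatives of the members; Values of some genes that this rule names are not reported here. DDR2, IRS1, IRS2 and SORT1 were named after their values were seen. Alternatives covered the pseudocount, the scaling, the FPKM minimum and the call.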

Additional observations from a re-analysis of the deposited data

How the results depend on the processing

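The 10 member differences moved from the reported value by less than their half-widths under 2 other pseudocounts (0.1 and none) and 3 other scalings (equal FPKM total without short RNAs, median log2 ratio set to 0, and quantile normalization), in 50 of 50 recomputations. These scalings shifted the BMH-21 values by -0.06 on the log2 scale for the first 2. That shift is small beside the smallest member half-width, 0.24 for PDGFRA, so staying within the half-widths was hardly in question there. PDGFRB and IGF1R kept separate intervals under all 3. Since the first 2 scalings lower every BMH-21 value, they could not undo a lower call and are no check on it. The signs of AXL and FGFR1 changed under at least 1 scaling. Lower members numbered 1 in place of 2 at 5 FPKM or more, where PDGFRB is not counted, and 1 by a 1.5-fold change of FPKM + 1, which ERBB3 met and PDGFRB and IGF1R did not. Over all measured genes, 917 were higher and 903 lower beyond the half-width in place of 456 and 401. At 5 FPKM or more, 304 were higher and 244 lower. With an equal total 350 were higher and 518 lower, and with the median set to 0, 356 were higher and 511 lower. The background thus held more lower than higher genes under these 2 scalings, the reverse of the authors' scaling. In the pathway lists together, higher genes numbered 5 in place of 8 with an equal total, with the median set to 0 and at 5 FPKM or more, and 20 beyond the half-width. Lower genes there numbered 3 in place of 5 at 5 FPKM or more and by 1.5-fold, and 11 beyond the half-width. With an equal total and with the median set to 0, FLT1 and EGR1 turned to overlap. NRG4, at 1.02 FPKM with BMH-21 before scaling, fell under the 1 FPKM minimum there. HBEGF, NRG4 and SNAI2 among the higher and FGFR3 and SHC2 among the lower were under 5 FPKM in both groups. Why the other counts moved was not tested. No paired analysis was possible because the columns hold no values of single libraries, and for the same reason no replicate could be left out. Depth limits are unknown without read totals.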
